A study of Caenorhabditis elegans with 2 samples.

Results

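Germline and P granule genes of the nematode Caenorhabditis elegans were examined for binding of LSY-2, a zinc finger transcription factor best known from the ASE taste neurons, where it helps to make the left cell differ from the right. The 41 genes were picked for their known germline roles, not by a peak value, out of 19973 protein-coding genes in the annotation. Earlier results of these data were known when they were chosen. They comprise 12 P granule genes, 11 RNA control genes (with the Notch receptor gene glp-1 counted here), 10 meiosis genes and 8 oocyte genes. Binding was measured by ChIP-seq of eGFP-tagged LSY-2 in whole animals at the L1 larval stage, mixed in sex, of strain OP367. It carries the unc-119(tm4063) mutation on chromosome III together with the transgene array wgIs367. The study holds 1 group with 2 biological replicates and no condition to compare it with, so no difference was tested, and the labels do not say whether the replicates came from separate cultures. A whole larva is mostly somatic, and the assay cannot say in which of its cells a site was bound.

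The germline of C. elegans begins as a pair of primordial germ cells, which are present at hatching and stay few through most of the first larval stage. P granules are RNA-protein condensates of germ cells, built on PGL scaffold proteins, Vasa-like GLH helicases and Argonaute proteins. RNA-binding proteins such as FBF-1 and GLD-1 control translation as germ cells pass from proliferation to meiosis and then to oocytes. Synaptonemal complex, chromosome axis and oocyte surface genes are known for use later in germline development than the L1 stage.

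Few of these promoters had an LSY-2 peak that passed the authors' reproducibility threshold. Promoter peaks are those whose summit falls within a window reaching 1000 bp upstream and 200 bp downstream of an annotated transcript start of the gene. In the list that passed the authors' irreproducible discovery rate (IDR) threshold, 4 of the 41 genes had one (9.76%, 95% exact Clopper-Pearson interval 2.72 to 23.1), against 16.9% of all protein-coding genes. These were gld-3 and pie-1 of the RNA control genes and spo-11 and xnd-1 of the meiosis genes. The interval includes the genome-wide share. None of the 12 P granule genes (interval 0% to 26.5%) and none of the 8 oocyte genes (0% to 36.9%) had a promoter peak past the threshold, while 2 of 11 RNA control genes (18.2%, 2.28 to 51.8) and 2 of 10 meiosis genes (20.0%, 2.52 to 55.6) did. With so few genes in each role these shares could not be told apart from the genome-wide share, and the intervals cover the counting of genes only.

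**Figure D1:**
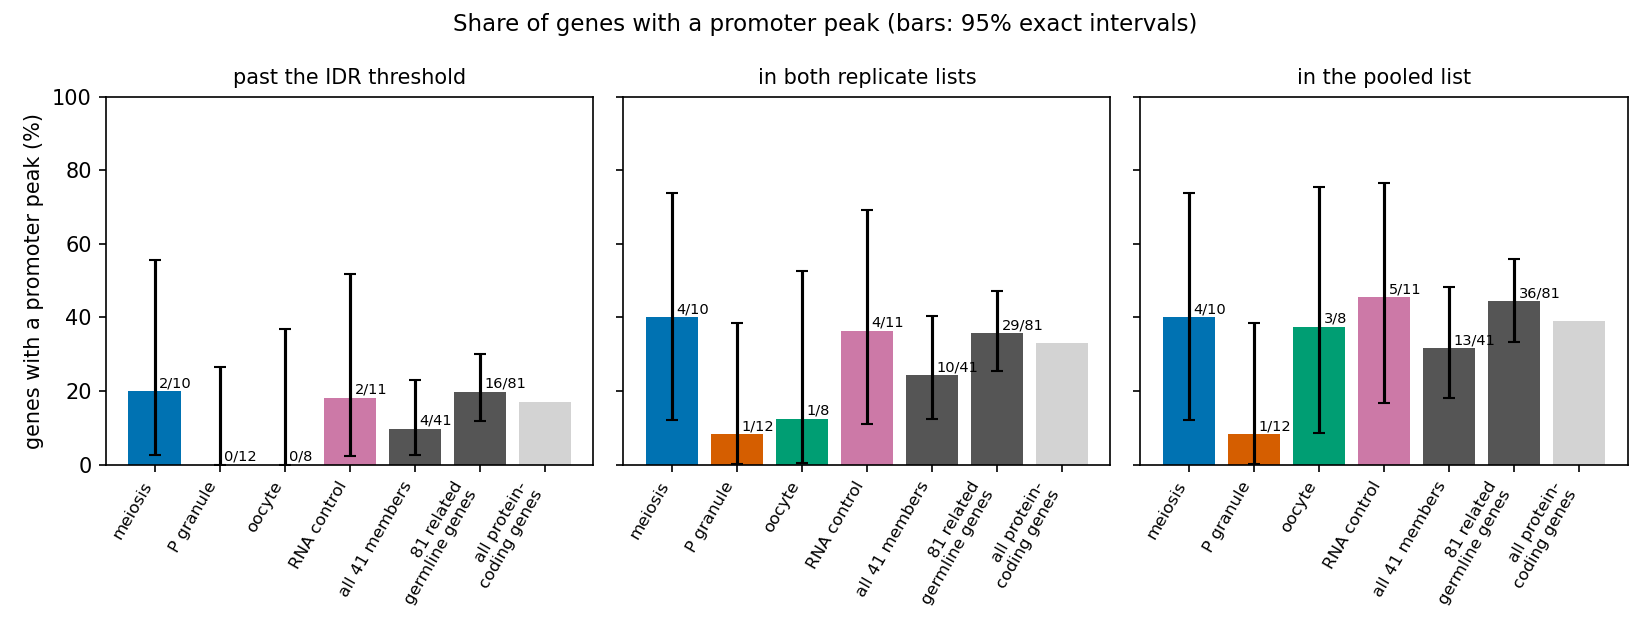
Percentage of genes with a promoter peak past the IDR threshold, in both replicate lists and in the pooled list, for the 4 roles, all 41 genes, 81 related germline genes and all protein-coding genes, with 95% exact intervals as error bars and the number of genes above each bar. Of the 12 P granule genes, 0 have a promoter peak past the threshold, and 1 gene, pgl-2, is counted in each of the other panels.

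The sequences around the 4 summits carry the contrast among these sites, and are given as 101 bases of the plus strand of ce11, with the summit at the middle base. Capitals mark the letters TGCGTCTCTC, the reverse complement of GAGAGACGCA.
gld-3 (chrII:7132076-7132176): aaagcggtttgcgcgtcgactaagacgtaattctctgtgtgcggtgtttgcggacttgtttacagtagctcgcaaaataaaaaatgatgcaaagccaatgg
xnd-1 (chrIII:5603785-5603885): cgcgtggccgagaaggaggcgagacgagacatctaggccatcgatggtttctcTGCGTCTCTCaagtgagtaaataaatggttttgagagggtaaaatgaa
spo-11 (chrIV:11125335-11125435): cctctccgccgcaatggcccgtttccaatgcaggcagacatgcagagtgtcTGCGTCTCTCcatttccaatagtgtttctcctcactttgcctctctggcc
pie-1 (chrIII:12426004-12426104): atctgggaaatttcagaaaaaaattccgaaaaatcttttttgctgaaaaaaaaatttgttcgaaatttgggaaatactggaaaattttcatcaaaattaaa

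Both meiosis genes held the same 10 letters right beside the summit, beginning 1 bp after it at spo-11 and 3 bp after it at xnd-1. The run joins GAGAGA and GACGCA, which are 2 of 3 sequences of 6 letters (with ACCGTA) that an earlier look at these peaks had picked out, and which overlap in it. The longest run that both windows share is 12 letters, of which these 10 are the part the 6-letter sequences cover, and the 10-letter run was chosen after the member sequences had been seen. Searched on both strands, it occurred within 50 bp of 132 of the 4218 summits past the threshold (3.13%), of 88 of the 25782 other pooled summits (0.341%), and in 7 of 4218 windows shifted 300 bp to the left of the summits past the threshold (0.166%). GAGAGA occurred near 28.7% of summits past the threshold, GACGCA near 17.4%, and ACCGTA near 7.73%. At least 1 of these 3 stood near 43.8% of summits past the threshold, and none stood within 50 bp of the gld-3 or pie-1 summit. All these sequences were picked from the same peaks, so their shares describe the peaks and give no independent support. Windows at the other pooled summits also held less G and C (median 32.7%, against 45.5%).

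The base composition of the 4 windows also differed. Their GC content was 55.4% at spo-11, 48.5% at xnd-1, 44.6% at gld-3 and 23.8% at pie-1. Windows at all summits past the threshold had a median of 45.5% and a middle 90% from 30.7% to 57.4%, so that of pie-1 lay below this range. At summits that did not pass the threshold the median was 32.7%.

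The strongest of these peaks was at gld-3, which encodes a KH-domain protein that acts with the cytoplasmic poly(A) polymerase GLD-2. The gene lies on chromosome II from 7132643 to 7137522, and the peak runs from 7132022 to 7132254. Its deposited signal, the authors' own value for a peak, was 112 in replicate 1, 104 in replicate 2 (mean 108 ± 6.12, SD, n = 2) and 217 in the pooled list, where it ranked 716 of 30000. The 2 replicates placed the summit on the same base. That summit was intergenic, 517 bp upstream of gld-3, and only 94 bp upstream of the divergent gene T07F8.4, whose start is the nearest.

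The peak at xnd-1, a gene for a chromatin protein that shapes where crossovers fall, had signals of 86.3 in replicate 1, 35.5 in replicate 2 (mean 60.9 ± 35.9, SD, n = 2) and 122 in the pool (rank 1477). It covers 5603754 to 5603888 on chromosome III, and the gene 5604460 to 5607556. Its intergenic summit lay 625 bp upstream of xnd-1 and 346 bp upstream of madf-11 on the other strand. The start of madf-11 was thus the nearest protein-coding start, and that of the non-coding gene C05D2.14 was nearer still, at 239 bp. A further peak past the threshold (pooled signal 97.4) lay within madf-11, outside the xnd-1 window.

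At spo-11, the gene for the enzyme that makes meiotic double-strand breaks, the signals were 63.0 in replicate 1, 57.2 in replicate 2 (mean 60.1 ± 4.09, SD, n = 2) and 119 in the pool (rank 1519). The peak runs from 11125321 to 11125469 on chromosome IV, where the gene occupies 11123133 to 11124862 on the minus strand. The intergenic summit was 523 bp upstream of spo-11, whose start was the nearest, and 639 bp from the start of swsn-4, the gene for a SWI/SNF chromatin remodelling ATPase on the other strand. A weaker summit in replicate 2 alone (signal 10.4) stood 69 bp upstream of spo-11.

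The pie-1 peak differed from the other 3 in how the replicates matched. PIE-1 is a CCCH zinc finger protein that keeps transcription repressed in the germline blastomeres of the embryo. The peak past the threshold (chromosome III, 12425970 to 12426089; gene 12426893 to 12429195) had signals of 8.62 in replicate 1, 41.5 in replicate 2 (mean 25.1 ± 23.3, SD, n = 2) and 50.5 in the pool (rank 3575). Replicate 2 was thus the higher here, whereas replicate 1 was the higher for gld-3, spo-11 and xnd-1, and for 3248 of the 4179 IDR peaks with a summit in both replicates. The log2 ratio of replicate 1 to replicate 2 was -2.27, a value reached or undercut by 2 of those 4179 peaks (median 0.34). At gld-3, spo-11 and xnd-1 it was 0.12, 0.14 and 1.28.

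Within 3000 bp of the pie-1 summit past the threshold stood 4 further pooled peaks with signals from 26.6 to 37.3, 3 of them upstream of the gene and 1 inside it. The same span held 3 further pooled peaks at spo-11, with signals from 9.10 to 16.9, 1 at xnd-1 (97.4) and none at gld-3. A summit 203 bp upstream of the start had signals of 5.26 in replicate 1 and 25.9 in replicate 2. An intronic summit 634 bp upstream of the gene's second annotated start had 41.1 in replicate 1 and, with the summit 173 bp away, 21.1 in replicate 2, the opposite order. Replicate 2 alone had a further intronic summit in pie-1, of signal 32.05. With the 4218 strongest peaks of either replicate alone pie-1 kept a promoter peak, but in replicate 1 it was the intronic one of signal 41.1.

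**Figure D2:**
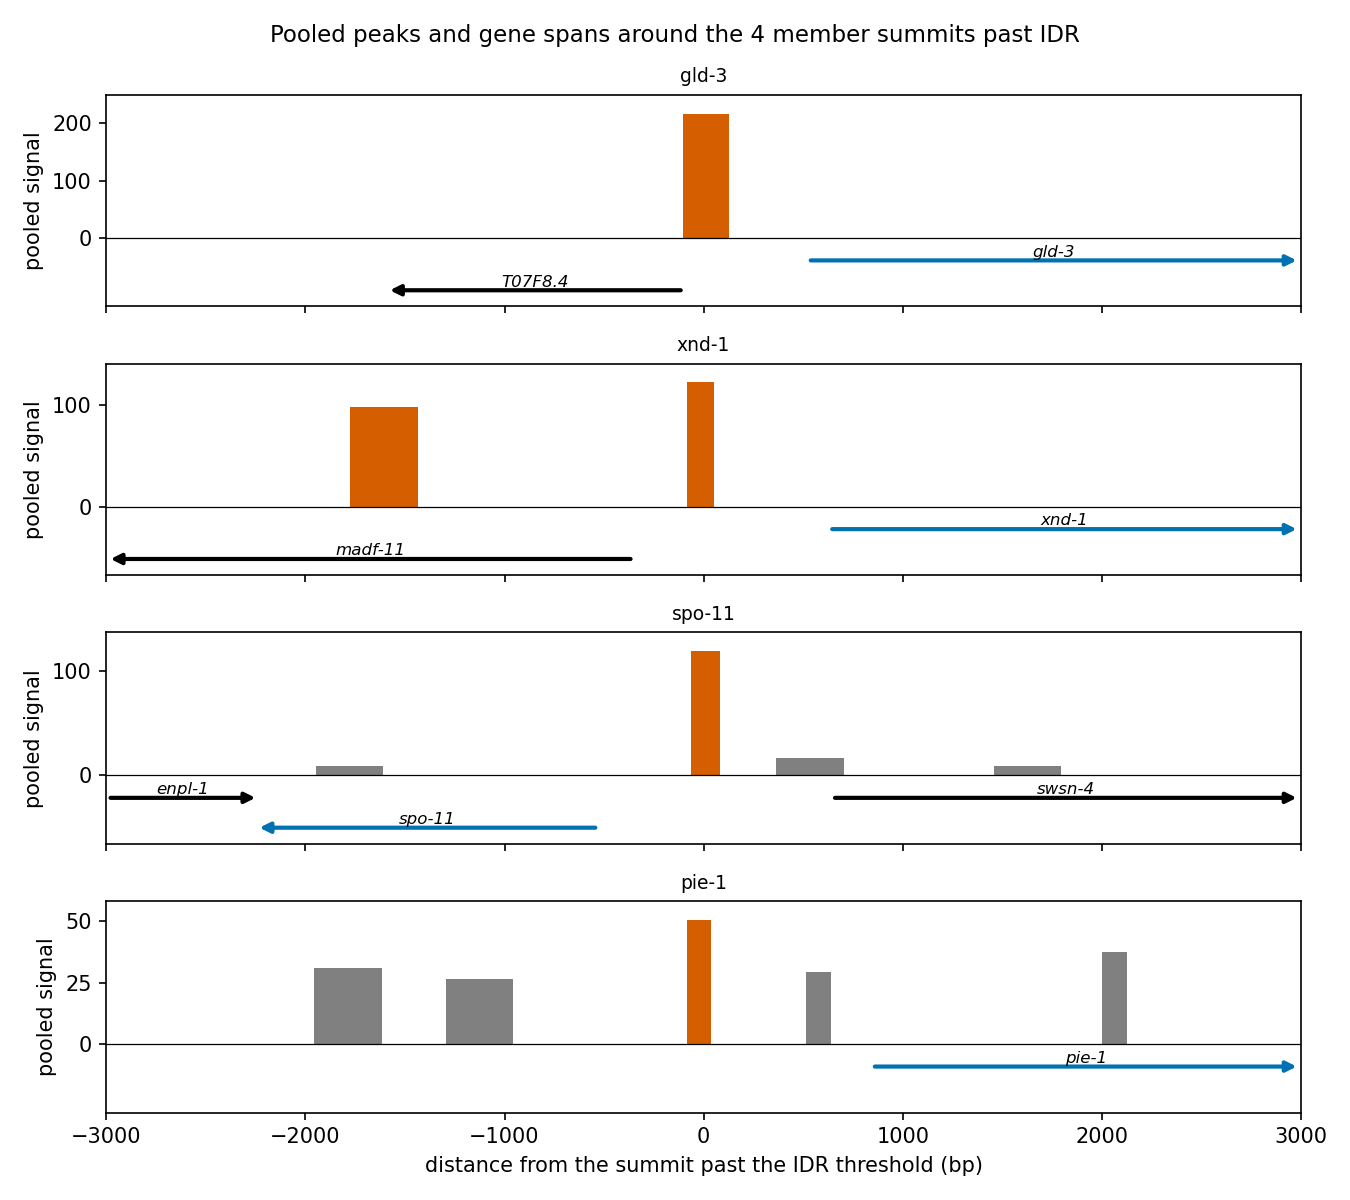
Pooled peaks within 3000 bp of the 4 summits past the IDR threshold, with distance from that summit on the x axis and the authors' pooled signal on the y axis (a separate linear scale in each panel). Orange bars are peaks past the threshold and grey bars are other pooled peaks; arrows show protein-coding genes in the direction of transcription, cut at the panel edge, with the member gene in blue. The gld-3, xnd-1 and spo-11 summits lie between divergent genes, and the pie-1 summit stands among 4 weaker peaks, against 3 weaker peaks at spo-11, 1 at xnd-1 and none at gld-3.

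All 4 summits were intergenic, as were 66.7% of all summits past the threshold. All lay more than 500 bp from the member's start, from 517 to 839 bp upstream with a median of 574 bp. Over the 3385 protein-coding genes with a promoter peak past the threshold the median was 217 bp upstream, and 608 of them (18%) had their closest summit more than 500 bp upstream. In addition, 3 of the 4 summits lay in windows shared with a neighbouring protein-coding gene, as did 33.4% of the 2658 summits past the threshold in any such window. The member owned the nearest protein-coding start at 2 of the 4, pie-1 and spo-11, which is 4.88% of the 41 genes against 12.5% of all protein-coding genes. Because the distances all exceed 500 bp, a narrower window (500 bp before to 100 bp after a start) left 0 of the 41 genes with a promoter peak, against 13.8% of all protein-coding genes.

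The members were also split by the crowding of gene starts. Another protein-coding start lay within 1000 bp for 17 of the 41 genes (41.5%), against 25.5% of all protein-coding genes. Of those 17, 3 had a promoter peak past the threshold (17.6%, 95% exact interval 3.8 to 43.4), against 35.3% of all genes with such a neighbour. Of the other 24 members 1, spo-11, had one (4.17%, 0.105 to 21.1), against 10.7% of all genes without such a neighbour. The 2 intervals overlap, and each includes its genome-wide share. The split goes by starts, not by summits. The pie-1 summit lies in the pie-1 window alone though pie-1 is among the 17, and the spo-11 summit lies in a window shared with swsn-4. The part that neighbouring starts play in the counts was not tested.

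By chromosome, 0 of 11 members on chromosome I had a promoter peak past the threshold, against 24.8% of protein-coding genes there. Chromosome III had 2 of 6, against 27.2%. On II the count was 1 of 7, against 17%, and on IV it was 1 of 11, against 16.5%. None of the 4 members on V (10.3% of genes) and neither of the 2 on X, meg-1 and meg-2 (11.3% of genes), had one.

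Below the threshold, weaker entries added more members. The pooled and replicate lists, each of 30000 entries, are labelled by the authors as peaks and background given to the IDR step. An entry in them therefore need not mark binding. In the pooled list the deposited −log10 q of the members' entries ran from 0.29 to 4.16. The pooled list, with 30000 peaks, held a promoter peak for 13 of 41 members (31.7%, 95% exact interval 18.1 to 48.1), against 39.0% of all protein-coding genes. Replicate 1 had one for 12 (29.3%, against 40.3%) and replicate 2 for 16 (39.0%, against 41.5%). Both replicate lists had one for 10 (24.4%, against 33.0%), and the pooled and both replicate lists together for 9 (22%, against 31.5%). Taking each member's strongest pooled promoter peak, the median signal was 30.3, against 33.0 for the genome's protein-coding genes. The value 30.3 is that of 1 peak counted for both mex-5 and rec-8, described below.

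**Figure D3:**
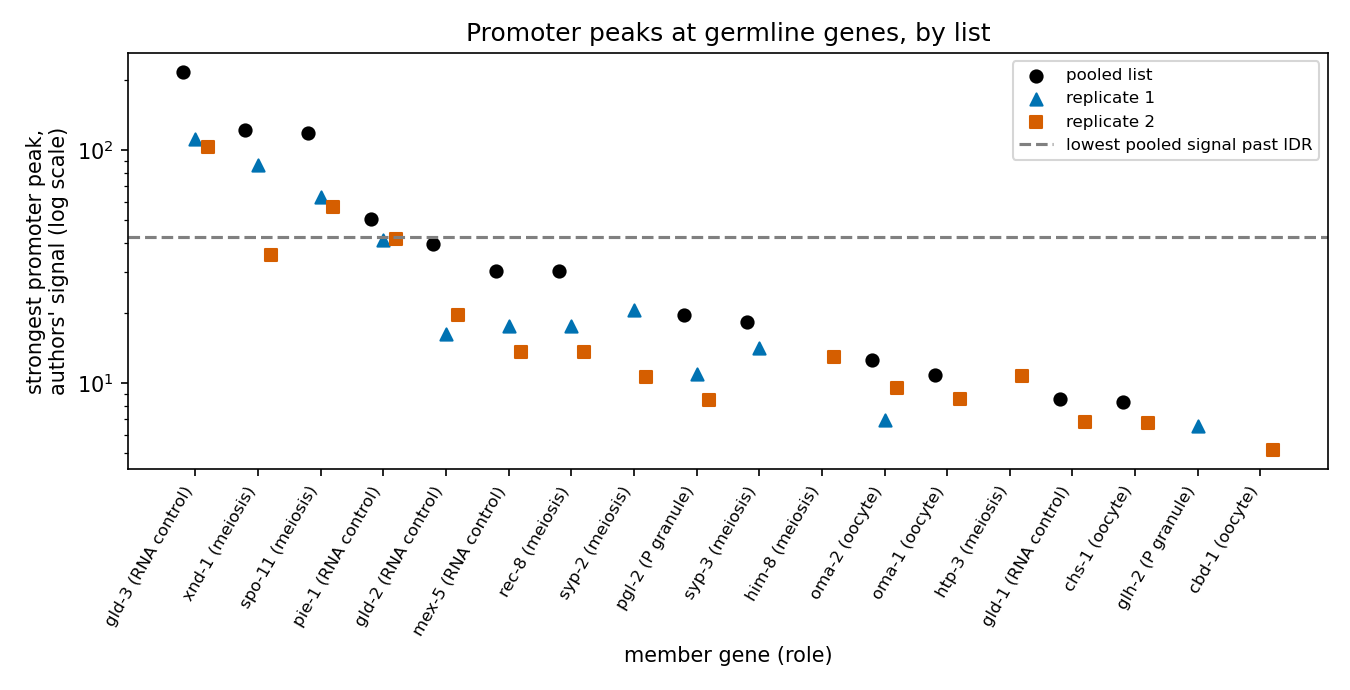
Signal of the strongest promoter peak in the pooled list (circles), replicate 1 (triangles) and replicate 2 (squares) for the 18 members with a promoter peak in any of them, on a log scale, ordered by pooled signal, or by the higher replicate where the pool has none. The dashed line marks 42.2, the lowest pooled signal past the IDR threshold, with pie-1 (50.5) just above it and gld-2 (39.5) just below.

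Among the RNA control genes, gld-2, which encodes the poly(A) polymerase, came closest without passing. Its pooled signal was 39.5 (rank 4510), just under the lowest signal past the threshold, 42.2, whereas the weakest member above it was pie-1 at 50.5. The replicates had signals of 16.2 and 19.5 there (mean 17.9 ± 2.35, SD, n = 2). The summit lay in an intron of gld-2, 362 bp upstream of one of its 6 annotated starts.

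A single pooled peak of signal 30.3 counted for 2 members. It stood between the divergent genes mex-5, for an embryonic polarity RNA-binding protein, and rec-8, for a meiotic cohesin, 193 bp upstream of mex-5 and 337 bp upstream of rec-8. The replicates had 17.6 and 13.6 (mean 15.6 ± 2.85, SD, n = 2). The translational repressor gene gld-1 had only a faint pooled peak (8.54), found in replicate 2 (6.82) and not in replicate 1. The other 6 RNA control genes, mex-6, nos-1, nos-2, fbf-1, fbf-2 and glp-1, had no promoter peak in any list, which leaves 5 of 11 with one (45.5%, 95% exact interval 16.7 to 76.6, against 49.9% of all protein-coding genes).

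Among the P granule genes, pgl-2 alone had a pooled promoter peak, with 3 summits of signal 19.7, 14.6 and 7.72. Its strongest summits were 10.9 in replicate 1, 125 bp upstream of a start, and 8.43 in replicate 2, 88 bp downstream of the same start. These 2 summits lay more than 200 bp apart, so they were not matched to each other. The helicase gene glh-2 had a peak in replicate 1 alone (6.53), nearer to the start of C55B7.11. The other 10 P granule genes had none in any list: the scaffold genes pgl-1 and pgl-3, the helicase genes glh-1, glh-3 and glh-4, deps-1, meg-1, meg-2, and the Argonaute genes prg-1 and csr-1. These 2 of 12 genes with any promoter peak (16.7%, 95% exact interval 2.09 to 48.4) compare with 49.9% of all protein-coding genes, a share just above the interval. The role has few genes, and it was 1 of 4 described. For the related P granule and small RNA genes outside the list, described below, the shares stood above the genome-wide ones. Of these 16, 11 had a promoter peak in at least 1 list (68.8%, 95% exact interval 41.3 to 89, against 49.9%). In both replicate lists 8 of them had one (50%, 24.7 to 75.3, against 33.0% of all protein-coding genes). Both intervals include the genome-wide share.

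Among the meiosis genes, 7 of 10 had a promoter peak in at least 1 list (70.0%, 95% exact interval 34.8 to 93.3, against 49.9% of all protein-coding genes), spo-11 and xnd-1 included. The interval includes the genome-wide share. The gene syp-2, for a protein of the synaptonemal complex, had signals of 20.6 in replicate 1 and 10.6 in replicate 2 with no summit in its window in the pooled list. Its partner gene syp-3 had pooled signals of 18.3 and 10.1, with the stronger summit nearer to F39H2.3. The X chromosome pairing gene him-8 (12.9) and the axis gene htp-3 (10.8) had a peak in replicate 2 alone. No promoter peak was found in any list for the axis genes him-3 and htp-1 or for syp-1.

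Among the oocyte genes, 4 of 8 had a promoter peak in at least 1 list (50%, 95% exact interval 15.7 to 84.3, against 49.9%), and 1 had one in both replicate lists (12.5%, 0.316 to 52.7, against 33.0%). The maturation gene oma-2 had signals of 6.93 in replicate 1 and 9.49 in replicate 2, at summits 499 and 716 bp upstream. The related gene oma-1 (pooled signal 10.9) and the eggshell chitin synthase gene chs-1 (8.29) had a replicate peak in replicate 2 alone, at 8.57 and 6.72. The oma-1 summit lies in a coding exon of C09G9.5, 64 bp from that gene's start. The vitelline layer gene cbd-1 had one in replicate 2 alone (5.15). The yolk receptor gene rme-2, puf-5, egg-1 and egg-2 had none in any list. In all, 18 of the 41 genes had a promoter peak in at least 1 list (43.9%, 95% exact interval 28.5 to 60.3, against 49.9%), and 23 had none. The lists start at their own lowest signals (7.41 in the pool, 4.18 in replicate 1 and 4.41 in replicate 2), so weaker binding would not appear in them. Because they also hold background, their weak entries may not be binding either.

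The median distance from a member's start to the closest summit past the threshold was 7326 bp, against 8962 bp for all protein-coding genes. It was 19460 bp for meiosis genes, 8896 bp for P granule genes, 6182 bp for RNA control genes and 6070 bp for oocyte genes. Within 2000 bp lay 6 of 41 members (14.6%, against 23.7%), and beyond 10000 bp lay 17 (41.5%, against 47.1%). In the first group, apart from the 4 already described, were chs-1, with a summit (signal 82.1) 1147 bp upstream but 136 bp from the start of T25G3.1, and oma-2, with one (152) 1917 bp downstream but 55 bp from the start of vars-1. The yolk receptor gene rme-2 was the farthest, at 67666 bp, followed by him-8 at 54150 bp. No summit past the threshold lay inside any of the 41 genes, against 4.63% of all protein-coding genes with such a summit.

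**Figure D4:**
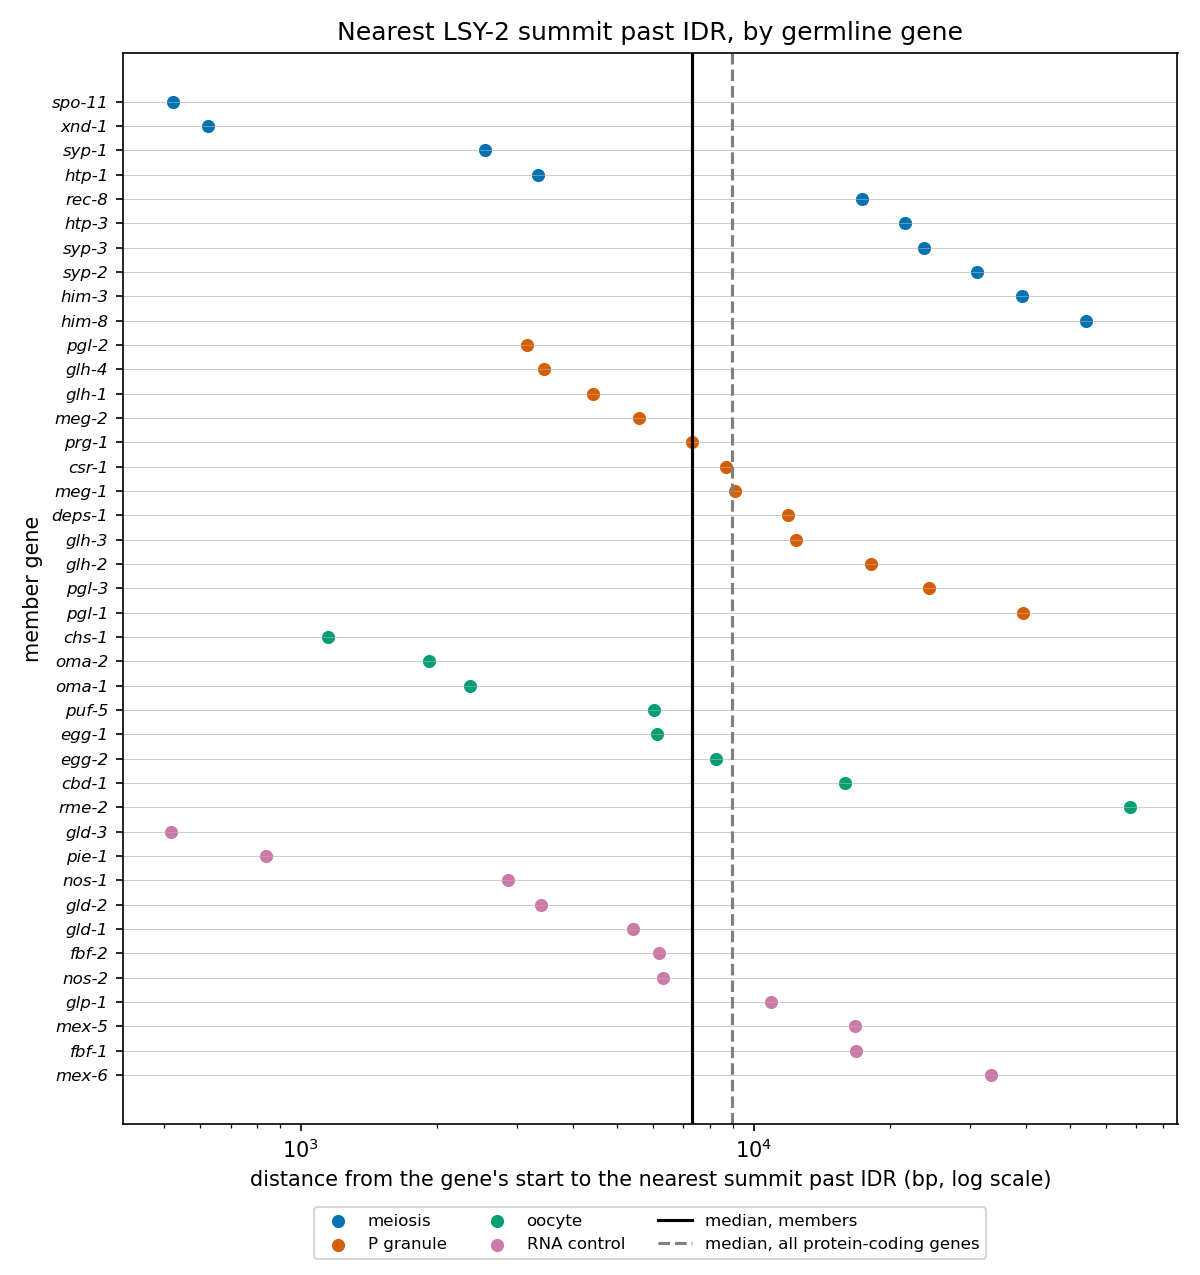
Distance from the closest annotated start of each of the 41 genes to the nearest summit past the IDR threshold, on a log scale, with genes grouped by role and ordered by distance. The black line is the median of the members (7326 bp) and the dashed grey line that of all protein-coding genes (8962 bp); gld-3, spo-11, xnd-1 and pie-1 stand below 1000 bp.

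Other germline genes were described in the same way, from a list of 81 genes of the same 4 roles. Of these, 16 had a promoter peak past the threshold (19.8%, 95% exact interval 11.7 to 30.1, against 16.9% of all protein-coding genes): 5 of 16 P granule and small RNA genes, 4 of 20 RNA control genes, 6 of 31 meiosis genes and 1 of 14 oocyte genes. The strongest was at nos-3, a Nanos-type RNA-binding protein gene, with signals of 699 and 618 in the replicates (mean 658.5 ± 56.8, SD, n = 2) and 1302 in the pool. Its summit lay 55 bp upstream of nos-3, in a window shared with Y53C12B.1. No member of the 41 genes reached this level, and its relatives nos-1 and nos-2 had no promoter peak in any list.

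Of these 16 genes, 10 owned the nearest protein-coding start to a summit in their window, against 73.7% of the 3385 protein-coding genes with a promoter peak past the threshold. A neighbour's start was closer at larp-1 (pooled signal 691, nearest start wip-1), ekl-1 (455, prpf-4), mex-1 (357, W03C9.5), the helicase gene cgh-1 (287, C07H6.9), mut-7 (176.5, eif-2Balpha) and spn-4 (163, spe-39). The gene's own start was the nearest protein-coding start at egg-5 (866, with the snRNA gene sls-2.4 nearer, at 34 bp), pch-2 (187), mre-11 (120.1, with no summit within 200 bp in replicate 1) and 7 more of the 16. Among its meiosis genes, the 6 with a peak were com-1, him-17, mre-11, pch-2, rad-51 and syp-4, and each owned the nearest protein-coding start (at syp-4 the start of the snRNA gene H27M09.6 was nearer, at 8 bp).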

How the data were processed

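ChIP-seq of eGFP-tagged LSY-2 in L1 larvae gave 2 replicates of 1 group, and no groups were compared. The authors deposited peak lists on ce11 for each replicate, for both pooled and after an IDR threshold; per the listings deposited with them, calls used 1 further file beside the replicates' alignments, taken here to be the control. The sources used here do not name the aligner, the peak caller or the IDR cut-off. The deposited signal of a peak (statistic not given) only ranked and described peaks. The deposited −log10 q values, at their ceiling for 100% of peaks past the threshold and 24% of the pooled list, entered no count. Lists on ce10 were not used. Sequencing depth is unknown, so precision is given by the replicates.

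Positions count from 1 on ce11 and were matched to Ensembl release 115 and the RefSeq genome of the same assembly (WBcel235). A replicate's signal at a pooled summit is that of its nearest summit within 200 bp; for syp-2, oma-2 and pgl-2, replicate values are the strongest in the window. Intervals are 95% exact and cover counting only. Named were all members with a promoter peak, the closest misses, the 10 strongest related genes and nearest neighbours; members without peaks are also accounted for. Members, role lists and motifs were chosen with earlier results of these data known. Alternatives covered windows, overlap, nearest or outermost starts, stronger peaks, each replicate alone and, added after seeing the data, isolated genes. Scripts ran in Python 3.11.15 with scipy 1.17.1 for intervals, pandas 2.3.3 and numpy 2.4.6 for tables, and matplotlib 3.10.9 for plots, and the assignment of peaks to genes was tested on simulated data.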

Additional observations from a re-analysis of the deposited data

How the results depend on the processing

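The number of members with a promoter peak past the IDR threshold lay from 0 to 5 over all alternatives and below the share of all protein-coding genes in each. It was 0 with the window of 500 bp upstream to 100 bp downstream, where by construction the summits beyond 500 bp drop out, and 1 of 24 among isolated genes, whose closest other protein-coding start lies over 1000 bp away (added after seeing the data), with fewer genes tested. Leaving out a replicate meant taking the 4218 strongest peaks of the other. The number of members was then 4 without replicate 1 and 4 without replicate 2, the same 4 genes each time. The peaks were not all the same. In replicate 1 the pie-1 peak past the threshold (signal 8.62, rank 14814) dropped out, and an intronic peak (41.1, rank 2637) kept the gene in the count. Related germline genes numbered 9 with the narrow window (11.1% against 13.8% of all protein-coding genes, below it only here). Among isolated genes they numbered 9 of 53 (17% against 10.7%). They numbered 17 without replicate 1 (21% against 17%) and 15 without replicate 2 (18.5% against 16.8%). Members owning the nearest start numbered 0 with the narrow window (against 10.8% of all protein-coding genes). They numbered 1 with the stronger 50% of peaks (2.44% against 7.61%), which leaves out pie-1, and 2 without either replicate. Members in both replicate lists numbered 6 with the narrow window (14.6% against 24.6%). Members in the pooled list stayed between 9 and 13, below the share of all protein-coding genes in each of 6 settings. With the narrow window they numbered 9 (22% against 31.2%). No paired analysis was possible because the study has 1 group. The lists hold no read counts, so how depth limits weak peaks cannot be given.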

Other observations

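For 38 of the 41 members (92.7%) the closest summit past the IDR threshold was nearer to the start of another protein-coding gene, against 83.1% of all protein-coding genes; the exceptions were pie-1, spo-11 and pgl-2, whose closest summit (signal 102) was 3164 bp upstream, in an intron of fli-1. The strongest of these neighbouring peaks (835) had its summit 6029 bp from the start of puf-5, in the non-coding genes F54C9.16 and F54C9.17. The nearest protein-coding start to it, at 415 bp, was that of the ribosomal protein gene rpl-5. Next came the peak near the start of perm-3 (387.5), with its summit 3347 bp from the start of htp-1. The closest summit to glh-3, 12404 bp away, was at lin-35 (244.5), the gene for the worm's retinoblastoma-like protein. The neighbouring P granule genes meg-1 and meg-2 shared 1 closest summit, as did fbf-1 and fbf-2, pgl-1 and him-3, and mex-5 and rec-8. The distances are thus not independent, and the pgl-1 and mex-5 pairs each join genes of different roles.

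The 10-letter run GAGAGACGCA found at spo-11 and xnd-1 stood near 0 of the 17 summits past the threshold in promoter windows of the 16 related germline genes. Among all summits past the threshold its share was 3.13%, so 17 summits are too few for 0 to mean an absence. GAGAGA stood near 1 of the 17, at com-1 (against 28.7% of all summits past the threshold). GACGCA stood near 2, at larp-1 and pch-2 (against 17.4%), and ACCGTA near 2, at nos-3 and him-17 (against 7.73%). Among all summits past the threshold the run occurred at 3.06% of the strongest 1406, 3.91% of the middle 1406 and 2.42% of the weakest 1406.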
